A study of Mus musculus with 2 samples.

Results

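The genes described here are 10 genes transcribed in 2-cell-like cells, Zscan4c, Zscan4d, Zscan4f, Zfp352, Tdpoz1, Tdpoz4, Tcstv1, Tcstv3, Arg2 and Sp110, out of 21887 protein-coding genes placed on mm10. They were taken by name and not by a measured value, but they were chosen with earlier results of these data known. Each gene was searched for sites of NANOG, a homeodomain transcription factor, in its body and within 50 kb of its transcription start site (TSS). The cells were E14TG2a.4, an embryonic stem (ES) line from a male mouse of strain 129/Ola, labelled embryonic with an age of 3.5 days, and NANOG had been mapped with an antibody by chromatin immunoprecipitation and sequencing (ChIP-seq). There was 1 group of 2 biological replicates with 1 technical replicate each, and no other condition. The peak lists hold no expression values, so the cell type could not be checked against marker levels, and which cells of the cultures were in the 2-cell-like state is not known.

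A small and changing fraction of cells in ES cell cultures resembles the blastomeres of the 2-cell embryo. Such cells transcribe the endogenous retrovirus MERVL and a set of genes that are switched on when the embryonic genome is first activated, under the homeobox factor DUX, while they lose the protein of several pluripotency factors. NANOG belongs to the pluripotency network that is active in the other cells of the culture and binds DNA through a homeodomain whose core motif is TAAT.

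On mm10 the authors deposited an optimal set of 15891 regions, kept by their reproducibility procedure (irreproducible discovery rate, IDR), and a stricter conservative set of 9431. They also deposited relaxed lists of 300000 regions for each replicate and for the pool of both, which hold background as well as peaks. A region's signal is the value that the authors gave it, on a scale that is not stated, and ranks below are by that signal within a list. On mm9 the lists were a series-level list of 13341 peaks, 22082 peaks of replicate 1 and 6618 of replicate 2, each peak with an enrichment ratio and a q-value by the authors. Read depth was unknown.

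Of the 10 genes, 1 had an optimal NANOG summit in its window, Tdpoz4, against 48.1% of all protein-coding genes. The conservative set had no summit for any of them, against 33.5% of all genes. Sites on mm9 were listed for 4 of the 8 genes that its annotation holds, Zscan4c, Zscan4f, Tdpoz1 and Zfp352, against 46.8% of 22380 protein-coding genes. Each of these was also a peak of replicate 1, which listed peaks for 6 of the 8, against 63.1% of all genes. The mm9 list of replicate 2 had a peak for none of the 8, against 29.4% of all genes.

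The sequences of the sites that the results turn on are given first, since several lie in repeated DNA. They are the series-level peaks of the 4 genes, the replicate 1 peaks of Tdpoz4 and Arg2, and a distal site of Arg2 outside the window. Each is the central 300 bases of a listed mm9 peak. Capitals mark matches, on either strand, to TAAT, to the octamer ATGCAAAT bound by OCT4, to CATTGTN bound by SOX factors, to TCAAGGTCA bound by ESRRB and to the palindromic motif bound by DUX, and matches may overlap.
Zscan4c site (mm9), chr7:11577658-11577957, plus strand: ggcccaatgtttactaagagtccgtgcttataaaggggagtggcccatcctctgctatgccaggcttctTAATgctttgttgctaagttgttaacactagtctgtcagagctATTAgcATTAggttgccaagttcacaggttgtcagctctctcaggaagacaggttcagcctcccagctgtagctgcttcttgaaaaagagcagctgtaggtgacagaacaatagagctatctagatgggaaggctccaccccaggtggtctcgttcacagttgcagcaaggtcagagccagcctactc
Zscan4f site (mm9), chr7:11969876-11970175, plus strand: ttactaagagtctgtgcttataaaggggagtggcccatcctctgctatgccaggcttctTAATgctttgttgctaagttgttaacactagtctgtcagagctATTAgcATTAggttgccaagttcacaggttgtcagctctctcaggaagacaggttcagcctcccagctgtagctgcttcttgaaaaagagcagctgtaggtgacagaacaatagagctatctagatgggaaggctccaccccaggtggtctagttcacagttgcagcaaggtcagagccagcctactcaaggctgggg
Tdpoz1 site (mm9), chr3:93512840-93513139, plus strand: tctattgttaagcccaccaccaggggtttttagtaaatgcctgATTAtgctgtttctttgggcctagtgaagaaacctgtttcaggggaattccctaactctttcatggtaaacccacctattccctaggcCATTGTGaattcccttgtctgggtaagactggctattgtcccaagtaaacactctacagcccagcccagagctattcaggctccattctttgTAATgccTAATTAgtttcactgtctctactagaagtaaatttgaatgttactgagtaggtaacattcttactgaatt
Tdpoz4 site (mm9), chr3:93623800-93624099, plus strand: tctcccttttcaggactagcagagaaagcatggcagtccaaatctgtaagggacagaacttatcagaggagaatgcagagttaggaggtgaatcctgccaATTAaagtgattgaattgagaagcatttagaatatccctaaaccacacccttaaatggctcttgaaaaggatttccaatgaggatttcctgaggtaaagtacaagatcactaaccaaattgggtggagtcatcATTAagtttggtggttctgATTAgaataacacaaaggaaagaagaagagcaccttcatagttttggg
Zfp352 site (mm9), chr4:89936489-89936788, plus strand: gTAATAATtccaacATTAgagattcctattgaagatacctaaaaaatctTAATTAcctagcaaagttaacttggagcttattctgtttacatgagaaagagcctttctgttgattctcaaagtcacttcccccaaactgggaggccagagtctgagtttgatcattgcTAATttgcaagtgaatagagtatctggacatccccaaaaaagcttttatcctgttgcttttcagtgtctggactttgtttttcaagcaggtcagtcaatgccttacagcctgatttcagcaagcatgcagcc
Arg2 intragenic site (mm9), chr12:80242420-80242719, plus strand: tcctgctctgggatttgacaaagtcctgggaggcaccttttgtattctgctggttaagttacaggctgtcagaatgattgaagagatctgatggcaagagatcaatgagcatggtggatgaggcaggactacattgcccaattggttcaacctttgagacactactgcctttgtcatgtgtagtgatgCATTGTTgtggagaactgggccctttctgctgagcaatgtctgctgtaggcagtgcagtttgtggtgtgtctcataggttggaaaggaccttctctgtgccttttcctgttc
Arg2 downstream site (mm9), chr12:80266983-80267282, plus strand: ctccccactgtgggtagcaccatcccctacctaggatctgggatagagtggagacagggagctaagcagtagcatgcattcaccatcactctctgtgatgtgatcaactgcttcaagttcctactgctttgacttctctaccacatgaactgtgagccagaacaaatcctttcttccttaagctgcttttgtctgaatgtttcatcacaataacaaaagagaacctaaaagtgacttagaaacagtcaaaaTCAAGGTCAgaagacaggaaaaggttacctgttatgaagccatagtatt
Arg2 distal site (mm9), chr12:80142537-80142836, plus strand: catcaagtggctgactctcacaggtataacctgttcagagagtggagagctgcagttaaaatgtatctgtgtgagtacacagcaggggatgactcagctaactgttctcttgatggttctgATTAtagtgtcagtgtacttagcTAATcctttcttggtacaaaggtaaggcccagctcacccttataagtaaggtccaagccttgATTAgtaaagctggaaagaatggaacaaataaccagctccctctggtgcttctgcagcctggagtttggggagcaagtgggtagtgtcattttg

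The sites upstream of Zscan4c and Zscan4f were near-identical, with 288 identical bases and 2 mismatches in 290 aligned, 99.3%. They held the same 3 TAAT matches in the same order and no match to the 4 longer motifs. The Zfp352 site had 6 TAAT matches, the Tdpoz1 site had 4 with 1 CATTGTN match, and the Tdpoz4 and Arg2 distal sites had 3 each. The other Arg2 sites had no TAAT match, but the one 10.8 kb downstream had 1 CATTGTN match and the one 35.4 kb downstream had 1 TCAAGGTCA match. TAAT was found in 84.7% of the centres of the 13341 series-level peaks, CATTGTN in 31.5%, ATGCAAAT in 5.60%, TCAAGGTCA in 3.90% and the DUX motif in 0.0375%. None of the 8 sequences held ATGCAAAT or the DUX motif, and 1 held TCAAGGTCA.

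No listed region of the optimal set lay at any promoter of the 10 genes, and 3 of their upstream sequences are printed for what they contain. They are the 250 bases before the start in RefSeq's GRCm38.p6 table, written along the gene, with capitals as above. Zscan4c, with an mm9 peak, and Zscan4d, with none, are shown for comparison, and Zfp352 for its repeated unit.
Zscan4c upstream (GRCm38.p6), chr7:11005495-11005744, plus strand: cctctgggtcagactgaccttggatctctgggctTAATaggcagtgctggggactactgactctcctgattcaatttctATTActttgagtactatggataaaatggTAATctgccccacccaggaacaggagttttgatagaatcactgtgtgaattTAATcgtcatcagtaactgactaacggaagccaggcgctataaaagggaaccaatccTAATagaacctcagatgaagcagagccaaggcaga
Zscan4d upstream (GRCm38.p6), chr7:11166149-11166398, minus strand: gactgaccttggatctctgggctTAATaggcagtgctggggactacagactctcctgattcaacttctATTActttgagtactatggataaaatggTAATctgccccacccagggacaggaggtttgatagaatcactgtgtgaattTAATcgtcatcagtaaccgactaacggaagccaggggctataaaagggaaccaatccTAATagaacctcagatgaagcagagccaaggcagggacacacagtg
Zfp352 upstream (GRCm38.p6), chr4:90218570-90218819, plus strand: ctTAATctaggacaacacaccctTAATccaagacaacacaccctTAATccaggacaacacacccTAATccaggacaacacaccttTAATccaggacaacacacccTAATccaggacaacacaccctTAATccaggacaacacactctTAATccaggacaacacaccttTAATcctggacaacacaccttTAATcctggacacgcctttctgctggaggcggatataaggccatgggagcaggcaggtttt

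Where they overlapped, the upstream sequences of Zscan4c and Zscan4d were 97.1% identical and those of Zscan4c and Zscan4f 99.6%. Zscan4c and Zscan4d each had 5 TAAT matches and Zscan4f had 6. The Zfp352 sequence repeated a short unit holding TAAT and had 10 matches, a number reached by 0.306% of 21263 upstream windows of protein-coding genes. TAAT was present in 49.4% of those windows at least 1 time, so its presence alone did not set the genes apart. None of the 3 upstream sequences held an exact match to the DUX motif, which 0.0282% of the windows held. Its absence was therefore usual, and partial matches were not searched for. No promoter sequence of Arg2, Tcstv1 or Tcstv3 was used.

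**Figure D1:**
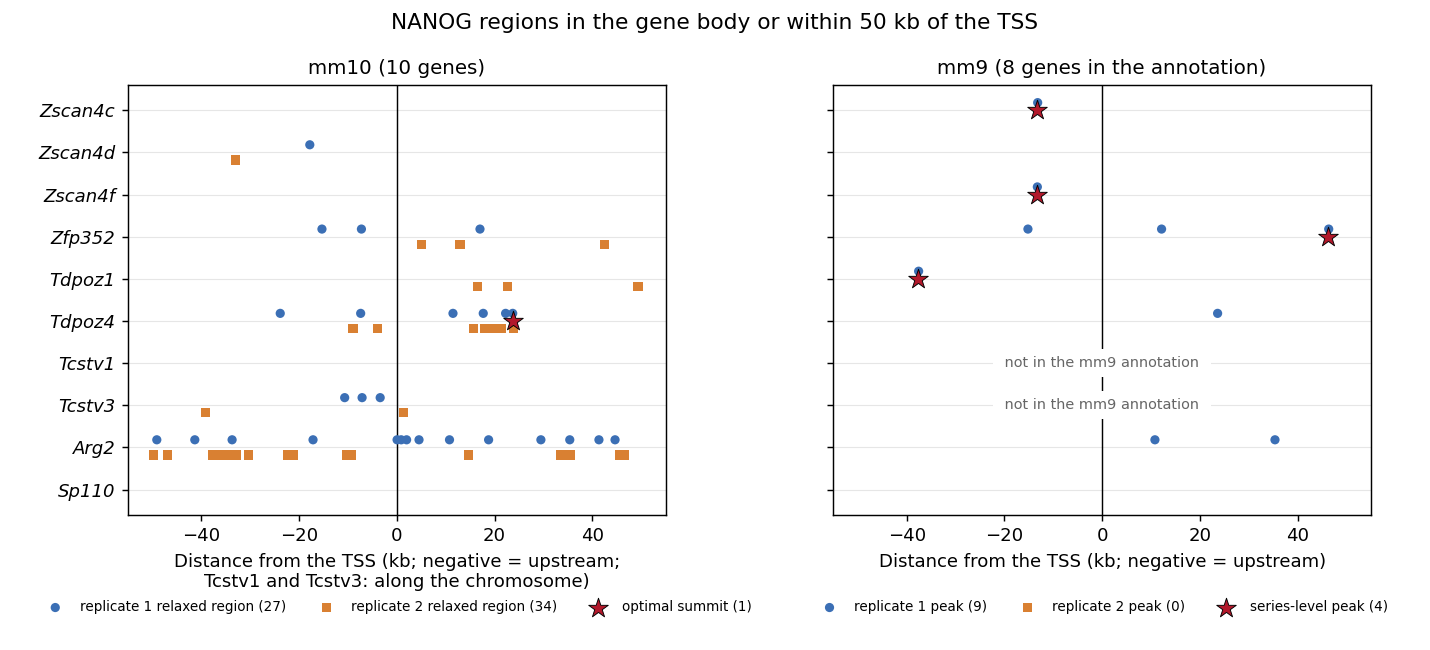
Each row is a gene and each mark a listed region, placed by the distance of its summit (mm10, left) or midpoint (mm9, right) from the TSS in kb. Circles are replicate 1, squares replicate 2, and stars the optimal summit (1, at Tdpoz4) or the series-level peaks (4). Sp110, Zscan4c, Zscan4f and Tcstv1 have no mark on mm10, and no square appears on mm9.

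Zscan4c, Zscan4d and Zscan4f encode proteins with a SCAN domain and zinc fingers that are known for telomere extension and genome stability in ES cells. They lie in 1 cluster on chromosome 7, at 11005745 to 11010547 for Zscan4c, 11161643 to 11166148 for Zscan4d and 11397915 to 11402318 for Zscan4f (mm10). Their mm9 coding sequences, 1521 bases each, were 99.6% identical between Zscan4c and Zscan4f and 97.7% between Zscan4d and either of the other two. No optimal summit lay inside the cluster. The nearest was 1035 kb downstream of the Zscan4c TSS, 874.7 kb upstream of that of Zscan4d and 642.9 kb downstream of that of Zscan4f. It was the same summit for all 3 genes, at chr7:12040633-12040996 with a signal of 28.4, and lay 0.484 kb from the TSS of Vmn1r77, a vomeronasal receptor gene. A summit was nearer for 98.0% of all protein-coding genes than for Zscan4c, for 97.6% than for Zscan4d and for 96.6% than for Zscan4f.

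The relaxed lists, which hold background too, were also empty over most of the Zscan4 cluster. Zscan4c and Zscan4f had 0 regions in both replicates and in the pool. Zscan4d had 1 region in replicate 1, 17.8 kb upstream with a signal of 7.11 and rank 107991, and 1 in replicate 2, 33.1 kb upstream with a signal of 4.70 and rank 241776. These are different places and low ranks. Around the Zscan4c TSS, 426.2 kb of replicate 1 and 451.7 kb of replicate 2 held no summit, against medians of 4.28 kb and 4.78 kb between neighbouring summits. Of 299831 gaps in replicate 1, 56 were at least that long. No mm10 genome sequence was at hand, so unsequenced bases were not taken out of this or any other empty stretch given here.

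On mm9 the picture of the cluster differed. Zscan4c had a series-level peak 13.3 kb upstream of its TSS, at chr7:11577536-11578080, with an enrichment of 5.03 and a q-value of 0.0198. Zscan4f had a peak at nearly the same offset, 13.2 kb upstream at chr7:11969623-11970429, with an enrichment of 5.37 and a q-value of 0.0173. Both values were below the median enrichment of the list, 7.38, and both q-values were near its highest, 0.0215. Replicate 1 listed the pair with enrichments of 9.11 at Zscan4c and 10.4 at Zscan4f, but its q-values were 0.476 and 0.0616, and replicate 2 listed neither. Zscan4d had no mm9 peak nearer than 173.6 kb in any list.

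A search of the mm9 genome with the Zscan4c site found 7 places with at least 90% identity over at least 270 bases, itself included, and all were in the Zscan4 cluster. A further close copy, 96.7% identical, lay 13.2 kb upstream of the pseudogene Zscan4-ps2, the same spacing as at Zscan4c and Zscan4f. The copies with a series-level peak were 2 of 7, those at Zscan4c and Zscan4f. Of the 32-base words of these peaks, 12.3% at Zscan4c and 12.6% at Zscan4f occurred a single time in mm9, against a median of 99.2% over series-level peaks. Only 273 series-level peaks, 2.05%, were under 20%. The sources used here do not say how reads from such copies were placed, and their part in the difference between the builds was not tested.

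Zfp352, a zinc finger gene on chromosome 4 at 90218820 to 90225687 (mm10), had its nearest optimal summit just outside the window. It lay 51.2 kb downstream, at chr4:90269803-90270166, with a signal of 35.6 and rank 9137 of 15891, and was not in the conservative set. Replicate 1 listed it at a signal of 30.2 and rank 8304. Within the window, replicate 1 had 3 relaxed regions and replicate 2 had 3, none shared. Sharing between replicates was not counted over all genes, here or for the genes below. The best of replicate 1 was 15.3 kb upstream with a signal of 11.5 and rank 28151, while the best of replicate 2 was 4.97 kb downstream with a signal of 6.03 and rank 100818. The mm9 lists gave a site at a like distance, 51.1 kb downstream of the main TSS and 46.3 kb from a further annotated start, which brought it into the window. Its series-level enrichment was 8.39 with a q-value of 0.0032, and its enrichment in replicate 1 was 15.3 with a q-value of 0.0127. Replicate 1 also had lower mm9 peaks 12.2 kb downstream and 15.2 kb upstream of a start, with enrichments of 6.51 and 5.53 and q-values of 0.547 and 0.501, and these were not in the series-level list. Replicate 2 had no peak nearer than 201.4 kb.

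Tdpoz1 and Tdpoz4 encode proteins with TRAF and POZ domains and lie in a tandem cluster on chromosome 3. Tdpoz4, at 93796398 to 93797510 (mm10), held the only optimal summit of the 10 windows, 23.7 kb downstream of its TSS at chr3:93819923-93820286. Its signal was 28.2 against a median of 40.2 for the set, with rank 11560 of 15891 and a −log10 q of 3.21. The summit lay outside protein-coding genes and was nearer to Tdpoz3, whose TSS was 5.92 kb away. Replicate 1 carried it at a signal of 24.2 and rank 10769. The nearest region of replicate 2 had its summit 23.9 kb downstream, overlapped the replicate 1 region, and had a signal of 7.73 and rank 33339, so it was not among that replicate's 15891 highest. On mm9, replicate 1 had a peak 23.6 kb downstream with an enrichment of 6.34 and a q-value of 0.112, and neither the series-level list nor replicate 2 had a peak there.

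Tdpoz4 also had 6 relaxed regions in replicate 1 and 9 in replicate 2, more than any of the other clustered genes among the 10, while its neighbour Tdpoz3 had 6 and 11. Tdpoz1, at 93669333 to 93676283, had 0 and 3, the highest with a signal of 5.66 and rank 129516. Its nearest optimal summit was 78.8 kb downstream with a signal of 42.6 and was in the conservative set. Replicate 1 listed that summit at a signal of 25.2 and replicate 2 at 13.9, within its 15891 highest regions. It lay 42.4 kb from the TSS of S100a10, an S100 calcium-binding family gene.

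Tdpoz1 had a series-level mm9 peak 37.6 kb upstream, at chr3:93512555-93513424, with an enrichment of 5.54 and a q-value of 0.0057, listed in replicate 1 at 10.7 with a q-value of 0.0187. The printed centre of this peak was a dispersed repeat. It matched 97 places of mm9 on 20 chromosomes, itself included, at 90% identity or more over at least 270 bases. Of those places, 81 overlapped a series-level peak, 88 a peak of replicate 1 and 49 a peak of replicate 2, whereas series-level peaks covered 0.441% of mm9 bases. The 4 places at 95% identity or more were all on chromosome 3. They had series-level and replicate 1 peaks and no replicate 2 peak, and 1 of them lay 8.82 kb upstream of Tdpoz5, another gene of the cluster. In the Tdpoz1 peak itself, 40.0% of 32-base words occurred a single time in mm9. Whether reads shared among the copies made any of these peaks was not tested.

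Tcstv1 and Tcstv3, genes named for their variable transcription at the 2-cell stage, lie on chromosome 13 at 119893387 to 119894785 and 120316862 to 120318261 (mm10). Neither is in the mm9 annotation used, and no strand was at hand, so distances are to the nearer end of the gene. Both had the same nearest optimal summit, 101.8 kb from Tcstv1 and 525.2 kb from Tcstv3, with a signal of 24.7 and 0.157 kb from the TSS of the zinc finger gene Zfp131. Tcstv1 had no relaxed region in either replicate, inside an empty stretch of 486.3 kb in replicate 1 and 456.7 kb in replicate 2. Tcstv3 had 3 in replicate 1 and 2 in replicate 2, none shared. The highest was 3.42 kb away in replicate 1, with a signal of 11.2 and rank 29732, and the highest of replicate 2 was 39.2 kb away with a signal of 5.20 and rank 174863.

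Arg2, the mitochondrial arginase that splits arginine into ornithine and urea, is a single gene on chromosome 12 at 79130788 to 79156301 (mm10). It had the most relaxed regions of the 10 genes, 14 in replicate 1 and 16 in replicate 2. The best of replicate 1 lay 35.4 kb downstream with a signal of 18.9 and rank 14298, and the next lay 10.8 kb downstream, inside the gene, with a signal of 15.6 and rank 18005. The best of replicate 2 was elsewhere, 37.7 kb upstream with a signal of 7.65 and rank 35072. A single region was shared within 100 bp, the one 35.4 kb downstream, where replicate 2 had a signal of 5.13 and rank 183991. Replicate 1 also had a region 0.044 kb from the TSS itself, with a signal of 7.46 and rank 92506.

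The mm9 list of replicate 1 held peaks at the same distances from Arg2, 10.8 kb and 35.4 kb downstream, with enrichments of 6.51 and 5.76 and q-values of 0.652 and 0.690. Neither was in the series-level list. The peak 35.4 kb downstream lay inside the neighbouring gene Vti1b on both builds, 0.222 kb from a Vti1b start on mm9 and 6.52 kb from its TSS on mm10. Among the nearest optimal summits of the 10 genes, the one with the highest signal was upstream of Arg2 and outside the window. On mm10 it was 89.1 kb upstream at chr12:79041508-79041804, inside Plekhh1, with a signal of 246.9, rank 335 of 15891, and it was in the conservative set. On mm9 a site 89.1 kb upstream had a series-level enrichment of 29.2, and replicate 2 listed it at 21.0. Of the 8 printed sites it was the only one in the mm9 list of replicate 2, and its sequence had no second place in mm9 at 90% identity.

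Sp110, a nuclear body protein of the SP100 family, lies on chromosome 1 at 85570735 to 85610850 (mm10). It had no relaxed region in either replicate or in the pool. The empty stretch around its TSS was longer than those around Zscan4c, Zscan4f, Tdpoz1 and Tcstv1, the other genes for which it was measured. It spanned 726.5 kb in replicate 1 and 715.3 kb in replicate 2, any unsequenced bases included. Of 299831 gaps in replicate 1, 28 were at least that long. Its nearest optimal summit was 228.6 kb upstream with a signal of 30.2, inside Cab39, a kinase-binding scaffold gene, and 46.0 kb from its TSS. On mm9 the nearest series-level peak was 589.3 kb upstream.

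**Figure D2:**
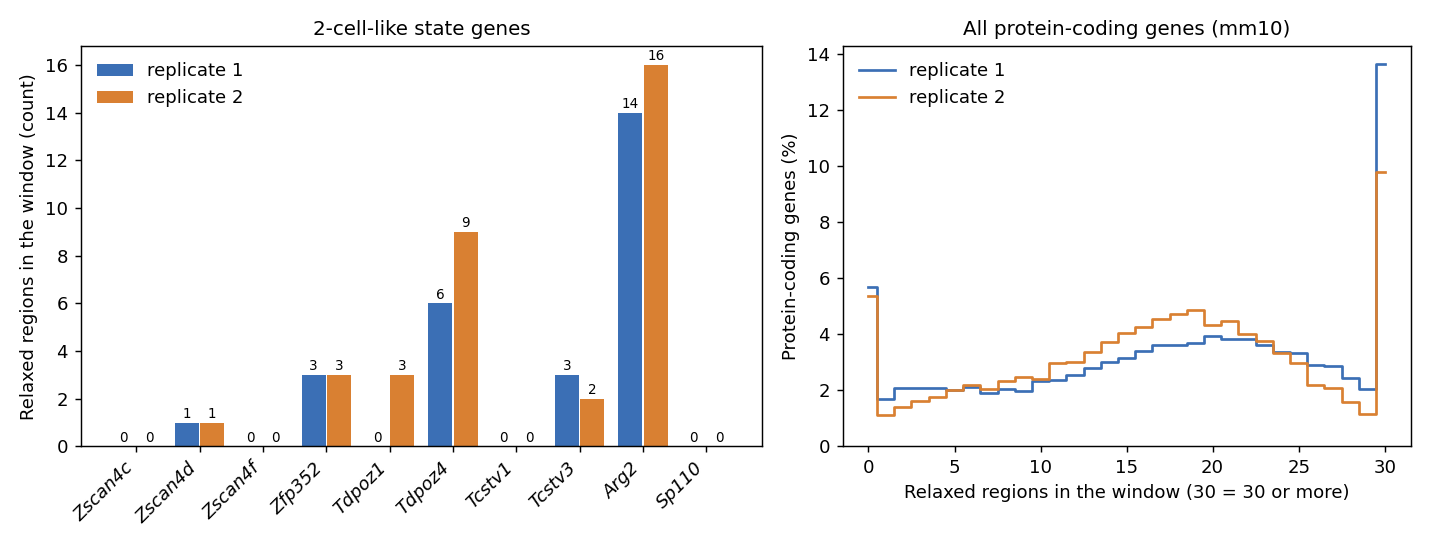
Left, the count of relaxed mm10 regions with a summit in each gene's window, with bars for replicate 1 and replicate 2. Right, the percent of all protein-coding genes with each count, where 30 stands for 30 or more. Arg2, with 14 and 16, is the only gene of the 10 near the medians of all genes, 18 and 17.

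Over the 10 genes the windows held 27 relaxed regions in replicate 1 and 34 in replicate 2. In 1 pair of them, at Arg2, the summits lay within 100 bp. Overlap with a region of replicate 2 was found for 3 regions of replicate 1, 2 at Tdpoz4 and 1 at Arg2. Sharing was not counted over all genes, so whether it was low for these genes is not known. No region at all was listed for 5 of the 10 genes in replicate 1, against 5.7% of all genes, for 4 in replicate 2, against 5.35%, and for 5 in the pool, against 5.9%. Of these, 4 genes, Zscan4c, Zscan4f, Tcstv1 and Sp110, had none in any of the 3 relaxed lists, against 4.7% of all genes. With genes lacking a region set at 300000, the median best rank was 203996 in replicate 1 and 208320 in replicate 2, against medians of 16798 and 14175 over all genes. Among the 15891 highest regions of each replicate, replicate 1 placed a region at 2 of the 10 genes, Tdpoz4 and Arg2, against 48.2% of all genes, and replicate 2 at none, against 53.5%.

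**Figure D3:**
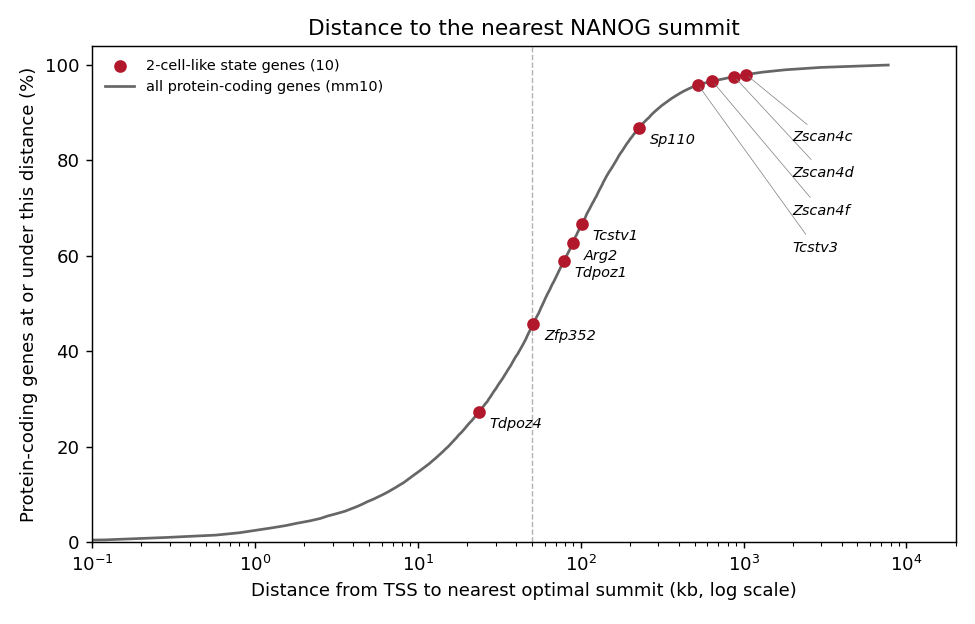
The dots are the 10 genes, placed by the distance from TSS to nearest optimal summit in kb on a log axis, on the curve of all protein-coding genes. The dashed line is the 50 kb window. Tdpoz4 is left of it, Zfp352 just right of it at 51.2 kb, and the Zscan4 genes and Tcstv3 lie at the far end, from 525.2 to 1035 kb.

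The median distance to the nearest optimal summit was 165.2 kb over the 10 genes, against 58.6 kb over all protein-coding genes, whose quartiles were 20.7 and 135.8 kb. The 10 are not independent. The 3 Zscan4 genes shared a summit, as did Tcstv1 and Tcstv3. Tdpoz4, Zfp352, Tdpoz1, Arg2 and Tcstv1, at 23.7, 51.2, 78.8, 89.1 and 101.8 kb, lay between the quartiles of all genes. Sp110 at 228.6 kb, Tcstv3 and the 3 Zscan4 genes lay beyond the upper quartile.

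Most of these genes lie in duplicated sequence, which was measured as the share of 32-base words, taken every 100 bases within 50 kb of the mm9 TSS, that occur a single time in mm9. The share was 8.0% for Zscan4f, 16.4% for Zscan4c, 17.5% for Sp110, 36.7% for Tdpoz1, 39.2% for Zscan4d, 43.3% for Tdpoz4, 71.2% for Zfp352 and 86.1% for Arg2. The median over all protein-coding genes was 90.2% and the lower quartile 83.6%, so Arg2 alone was above that quartile.

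**Figure D4:**
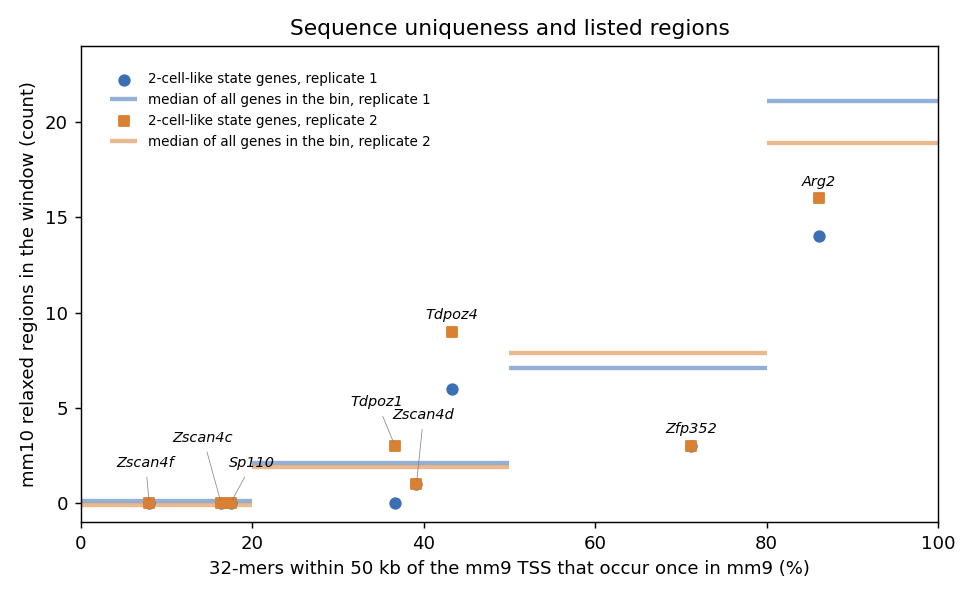
Points are the 8 genes with an mm9 position, by the percent of 32-base words near the TSS that occur a single time in mm9 and by the count of relaxed mm10 regions in the window, for each replicate. Bars are the medians of all genes in 4 bins of uniqueness, which are 0, 2, 7 and 21 regions in replicate 1. Sp110, Zscan4c and Zscan4f are at 0 in the lowest bin and Arg2 is in the highest.

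Listed regions went with uniqueness over all genes too. Of 491 genes with a share under 20%, 88.6% had no relaxed region in replicate 1 and 88.8% none in replicate 2. An optimal summit was found for 2.85% of them. The 3 members there, Zscan4c, Zscan4f and Sp110, had no relaxed region and no optimal summit. Of 427 genes between 20% and 50%, 27.2% and 24.6% had none, and 13.1% had an optimal summit. Of the 3 members there, Tdpoz4 had an optimal summit, and Tdpoz1 lacked a relaxed region in replicate 1. Of 2756 genes between 50% and 80%, 29.6% had an optimal summit, and the median was 7 regions in replicate 1 and 8 in replicate 2. Zfp352, the member there, had 3 in each and no optimal summit in its window. Of 16678 genes above 80%, 0.198% had no region in replicate 1 and 55.2% had an optimal summit, and Arg2, the member there, had regions but no optimal summit. The part of sequence uniqueness in the absence of sites at the 10 genes was not tested.

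Other genes of the 2-cell-like state were counted in the same windows. Their lists were made by known role, also with earlier results of these data known. Of 8 tandem relatives of the 10 genes, 1 had an optimal summit, Tdpoz3, through the same summit as Tdpoz4. That is 12.5% against 48.1% of all protein-coding genes. This list and the next include pseudogenes, which the 48.1% does not. Of 18 further genes transcribed in 2-cell-like cells, 5 had one, 27.8% against 48.1% of all genes. They were Spz1, a spermatogenic transcription factor with a signal of 74.9 from a summit inside the neighbouring Serinc5, the deubiquitinase-like Usp17lc with 48.8 from 18.7 kb away, Pramel6 and Pramel7 with a shared summit of 37.3, and Tmem92 with 32.2 from 47.5 kb away. Within 10 kb of the TSS, 1 of the 18 had a summit, while 14.5% of all protein-coding genes had one within 9.84 kb.

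Most genes known to switch the state on or hold it off had a summit in the 50 kb window. A smaller share had one within 10 kb, as over all genes. Of 8 activators, 7 had one, 87.5% against 48.1% of all genes. They included Tbx3, a T-box factor, with a signal of 136.3 and Nelfa, a subunit of the negative elongation factor, with 132.1, each inside its own gene. Dppa2 and Dppa4, partners that act upstream of Dux, shared a summit of 66.9 that lay 6.50 kb upstream of Dppa2. Klf17, a Krüppel-like factor, lacked one, its nearest being 120.6 kb away. The count of activators was 4 of 8 with the conservative set, against 33.5% of all genes. It was also 4 of 8 within 10 kb of the TSS, while 14.5% of all genes had a summit within 9.84 kb. Of 25 repressors of the state, 22 had one, 88.0%, the highest at Pcgf6, a Polycomb ring finger gene, with 266.5, from a summit 32.8 kb from its TSS, inside Ina and nearest to Nt5c2. It was followed by the histone methyltransferase gene Ehmt1 with 184.8, the zinc finger gene Zfp281 with 173.3 and the chromatin remodeller gene Ep400 with 157.8, the last from a summit 37.9 kb away inside Ulk1. Chaf1b, Kat5 and Smchd1 lacked one, with nearest summits 57.3, 81.2 and 282.1 kb away. The count of repressors was 18 of 25 with the conservative set, again against 33.5% of all genes. It was 9 of 25 within 10 kb of the TSS, where 14.5% of all genes had a summit within 9.84 kb. The median uniqueness share was 37.9% over the 8 members with a value, 9.69% over 4 tandem relatives and 75.1% over 10 of the further transcribed genes. It was 90.2% over 6 activators and 90.1% over 25 repressors. Nelfa and Duxf3 (Dux), activators with a summit, had no value. Where measured, the 3 lists with fewer summits also had lower uniqueness, and its part in the counts was not tested.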

How the data were processed

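NANOG ChIP-seq peak lists of 2 biological replicates of E14TG2a.4 were analysed as 1 group. Per the file headers of the authors' readme, the mm10 lists are relaxed regions prepared as input to IDR and optimal and conservative sets, and the mm9 lists are peaks. The deposited mm10 lists give a signal per region, the −log10 of the q-value and an integer score that was not used in any result. Each deposited mm9 peak has an enrichment ratio (relative to what is not stated), a −log10 p-value and an untransformed q-value. The aligner, peak caller and IDR threshold are not given in the sources used here. How the mm9 series-level list was made is not stated, and read depth is unknown. The number of deposited columns of other samples was 0.

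An mm10 site is a summit and an mm9 site the midpoint of a peak. Gene positions came from RefSeq's GRCm38.p6 table (mm10) and GENCODE vM1 (mm9), and coordinates of the builds were never converted into each other. Strand on mm10 came from the RefSeq promoter table for 17492 genes and from mm9 for 4047. Peak lists were counted with Python 3.11.15, NumPy 2.4.6 and pandas 2.3.3, 32-base words with numba 0.67.0, and copies of sites were found with BLAST+ 2.17.0 and aligned with Biopython 1.88. The counting was tested on simulated data. No test was run, since there is 1 group, and the spread is shown by giving each replicate. The replicates are labelled biological.

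All 10 genes are named. Of each other list the text names up to 4 genes with the highest optimal signal, those without a summit where 5 or fewer lack one, and the gene whose TSS is nearest to a summit named for 1 of the 10 genes. Zscan4-ps2, Tdpoz5, Tmem92, Duxf3, Serinc5, Ina, Nt5c2 and Ulk1 fall outside that rule and were chosen after their values were seen. The genes and lists were chosen with earlier results of these data known. BC061212, of the further transcribed genes, has no mm10 position here.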

Additional observations from a re-analysis of the deposited data

How the results depend on the processing

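Main values are 1 gene of 10 with an optimal summit, a median nearest distance of 165.2 kb, 4 of 8 genes with a series-level mm9 peak, a median best relaxed rank of 206158 and 35 of 59 other genes with an optimal summit. The share of all genes was 48.1% for an optimal summit and 46.8% for a series-level mm9 peak. The conservative set gave 0 genes, against 33.5% of all genes, and a median distance of 764.5 kb. A window of 10 kb gave 0 genes on mm10, 0 on mm9, 15 other genes and a median rank of 300000, the value given to genes without a region. A window of 100 kb gave 4 genes (Zfp352, Tdpoz1, Tdpoz4 and Arg2) and a median rank of 73564. Of all genes, 14.5% had an optimal summit within 9.84 kb of the TSS and 66.0% within 99.4 kb, the gene body not counted. The highest 15891 regions of the pooled list gave 2 genes (Tdpoz4 and Arg2), and the pooled list a median rank of 284827. An mm9 q-value of at most 0.001 gave 0 genes. Shares of all genes were not counted for the highest pooled regions, for that q-value or for 10 kb on mm9. Using 1 replicate gave from 0 genes (replicate 2 alone) to 2 (replicate 1 alone, Tdpoz4 and Arg2) on mm10, from 0 to 6 on mm9, from 30 to 35 other genes, median distances from 200.1 kb (replicate 2) to 345.4 kb (replicate 1) and median ranks from 203996 to 208320. The cause of these shifts was not tested, apart from window width, which sets them by construction. Counting any base of a region, leaving out the gene body, or using every RefSeq promoter start (chosen after seeing the data) left the count at 1. No paired analysis was possible because the study has a single group.

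With 2 replicates of unknown depth, absence from a list does not show that NANOG was absent. Windows on mm10 could not be checked for uniqueness on mm10 itself, and Tcstv1 and Tcstv3 have no mm9 value.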
